A study of Mus musculus with 16 samples.

Results

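The receptors, kinases and transcription factors that carry an interferon signal into the nucleus were followed through erythroid maturation in mouse foetal liver with and without Nprl3. The group holds 9 genes, taken by symbol from the 55416 genes of the count table: the receptor chains Ifnar1, Ifnar2 and Ifngr1, the kinases Jak1 and Tyk2, and the transcription factors Stat2, Irf1, Irf7 and Irf9. All 9 passed the filter on low counts in every comparison. In S3 erythroblasts without Nprl3, Irf7 was 7.03-fold and Irf9 2.62-fold higher than in wild-type cells, and no receptor or kinase gene was called. Both stayed called with DESeq2 and with sex as a covariate in edgeR. Neither of the 2 was called once wild-type embryo 0, 1 or 8 or KO embryo 2 was left out, nor with upper-quartile scaling. From S1 to S3 the receptor genes parted in every genotype, with Ifnar1 and Ifnar2 rising and Ifngr1 falling.

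S1 and S3 erythroblasts, an immature and a more mature erythroid stage, were sorted by flow cytometry on Ter119 and CD71 from E13.5 foetal livers on a C57BL/6J background. The embryos were 4 Nprl3+/+ (wild-type; numbers 0, 1, 5 and 8, of which 1 and 5 are female), 2 Nprl3+/- (Het; 3 and 4, both male) and 2 Nprl3-/- (KO; 2, female, and 9, male). Each embryo gave 1 library per stage, 16 in all, with total counts from 20666044 to 37609502. Nprl3 encodes a subunit of GATOR1, which restrains the nutrient-sensing kinase complex mTORC1. The mutant allele lacks the Nprl3 promoter in every cell of the embryo and keeps the α-globin enhancers that lie within the gene, so it is no erythroid-specific model, and homozygotes die before birth. The source and tissue fields of the labels name an embryonic stem cell line, whereas the titles and protocols describe sorted foetal liver, which was followed here. Litters are not given, and the p-values measure the spread between these embryos.

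Nprl3 itself checked the genotypes at S1, where it ran from 21 to 33.8 CPM (the read count of a gene scaled to a common library size with TMM factors) in wild-type, at 12.4 and 12.6 in Het and at 0.31 and 0.66 in KO libraries. At S3 the KO libraries held 110 and 117 CPM of reads assigned to the gene, against 143 to 214 in wild-type. The paper reports that non-coding transcripts starting at the enhancers confound measurements of Nprl3 mRNA. In its promoter-specific assay, Nprl3 mRNA was no longer detectable in KO cells. The share of such transcripts in the S3 reads was not tested here. The summed level of 7 late erythroid markers lay between 743 and 5941 CPM at S1 and between 100127 and 133564 CPM at S3, and that of 4 early markers between 152 and 233 CPM at S1 and between 1.76 and 8.87 CPM at S3. Both KO S3 libraries, with 100127 and 102150 CPM, had lower late erythroid sums than any wild-type S3 library (110458 to 133564 CPM), and all 7 markers had a fold change below 0 with 0 called. Its part in the KO differences of genes that change with stage, such as Irf7 and Irf9, was not tested. At S1, wild-type embryos 0 and 8 stood apart, with late erythroid sums of 5455 and 5941 CPM against at most 1953 CPM elsewhere and with neutrophil marker sums of 184 and 120 CPM against at least 1042 CPM. Fits without these 2 embryos are therefore given for S1 differences that moved. In such bulk samples, fewer cells of a type and less RNA per cell cannot be told apart.

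Type I interferons bind a receptor made of IFNAR1 and IFNAR2, whose chains hold the kinases TYK2 and JAK1. The kinases phosphorylate STAT proteins, among them STAT2, which joins IRF9 in the complex ISGF3, which binds interferon-stimulated response elements (ISREs) in its target genes. Interferon gamma uses a separate receptor whose binding chain is IFNGR1, signals through JAK kinases, and acts through gamma-activated sites (GAS). Irf1 and Irf7 are themselves induced by interferon, and IRF7 in turn drives transcription of type I interferon genes. Several genes of the pathway are thus both components and targets of it.

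The 4 stretches of mouse DNA that follow show where the core of such an element lies near the start of the transcription factor genes whose levels are described in most detail. They were read from mm39, 5′ to 3′ along the strand of the gene, with positions counted from the start of the canonical transcript in the GENCODE release used here. The gene positions given further on are those of the deposited count table, whose older annotation spans all transcripts of a gene. Apart from Ifnar2, Ifngr1 and Irf1, the genes start there at other bases than the canonical transcripts used here. Capitals mark the ISRE core GAAANNGAAA, or its reverse complement, in Stat2 and Irf7, and the GAS core TTCNNNGAA in Irf1. The Stat2 promoter is chr10:128106102-128106351 on the plus strand, bases -250 to -1, with the match at -207 to -198. The Irf7 stretches lie on the minus strand, in intron 1 (chr7:140845983-140846052, bases 346 to 415, match at 376 to 385) and in the untranslated part of exon 2 (chr7:140845738-140845767, bases 631 to 660, match at 641 to 650). The Irf1 stretch is chr11:53660721-53660789 on the plus strand, bases -120 to -52, with the match at -90 to -82, and overlaps an exon of the annotated gene Gm74496.
Stat2 promoter: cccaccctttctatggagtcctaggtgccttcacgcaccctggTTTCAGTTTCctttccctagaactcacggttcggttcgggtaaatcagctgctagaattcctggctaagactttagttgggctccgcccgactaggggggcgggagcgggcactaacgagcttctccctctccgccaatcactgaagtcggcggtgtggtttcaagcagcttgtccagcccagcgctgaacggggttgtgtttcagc
Irf7 intron 1: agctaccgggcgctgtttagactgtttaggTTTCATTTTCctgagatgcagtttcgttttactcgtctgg
Irf7 exon 2: tcacacttgtGAAACTGAAAttcctacctg
Irf1 upstream: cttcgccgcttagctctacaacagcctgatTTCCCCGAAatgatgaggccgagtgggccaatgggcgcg

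Both strands were searched, and matches to the 2 motifs did not overlap in any of the 9 genes. In the window from 250 bases before to 50 bases after the start, the ISRE core was found in 1 of the 9 genes (Stat2) and in 3.84% of 21770 protein-coding genes. In the same window the GAS core was found in 2 of the 9 (Ifnar2 and Irf1) and in 8.81% of all. Within 1000 bases on either side of the start, 3 of the 9 genes held the ISRE core (Jak1, Stat2 and Irf7) against 22.7% of all, and 6 of the 9 held the GAS core (Ifnar1, Ifnar2, Jak1, Tyk2, Irf1 and Irf9) against 45.2% of all. Irf9, which differed between genotypes at S3, had no ISRE core in either window, so these letters do not separate the members that differed from those that did not. A match of this kind describes the sequence only.

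Levels of different genes were compared as CPM per kilobase of exonic length, averaged over a group's libraries. In wild-type S1 cells Ifngr1 led with 52.3 CPM per kb, followed by Jak1 (13.1) and Ifnar2 (12.2), whose ranges over the 4 libraries overlapped. Irf9 (4.55), Ifnar1 (3.18), Irf7 (2.45), Tyk2 (2.01), Stat2 (1.22) and Irf1 (0.63) came next, each with a range that overlapped that of its neighbour. In wild-type S3 cells Ifnar2 led with 45.0 CPM per kb, above Jak1 (21.3), Irf9 (21.1), Irf7 (13.9) and Ifnar1 (12.7), which overlapped from neighbour to neighbour. Ifngr1 (2.03) and Stat2 (1.71) overlapped each other, and Tyk2 (0.47) and Irf1 (0.14) closed the order. In KO S3 cells Irf7 was in the first place with 96.7 CPM per kb and Irf9 in the second with 54.7, above Ifnar2 with 46.5. No neighbours in that order overlapped, but its ranges rest on 2 libraries against 4 in wild-type, so overlap is less likely. The exonic lengths take in all annotated transcripts, so a gene expressed from 1 short isoform is set too low on this scale.

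**Figure D1:**
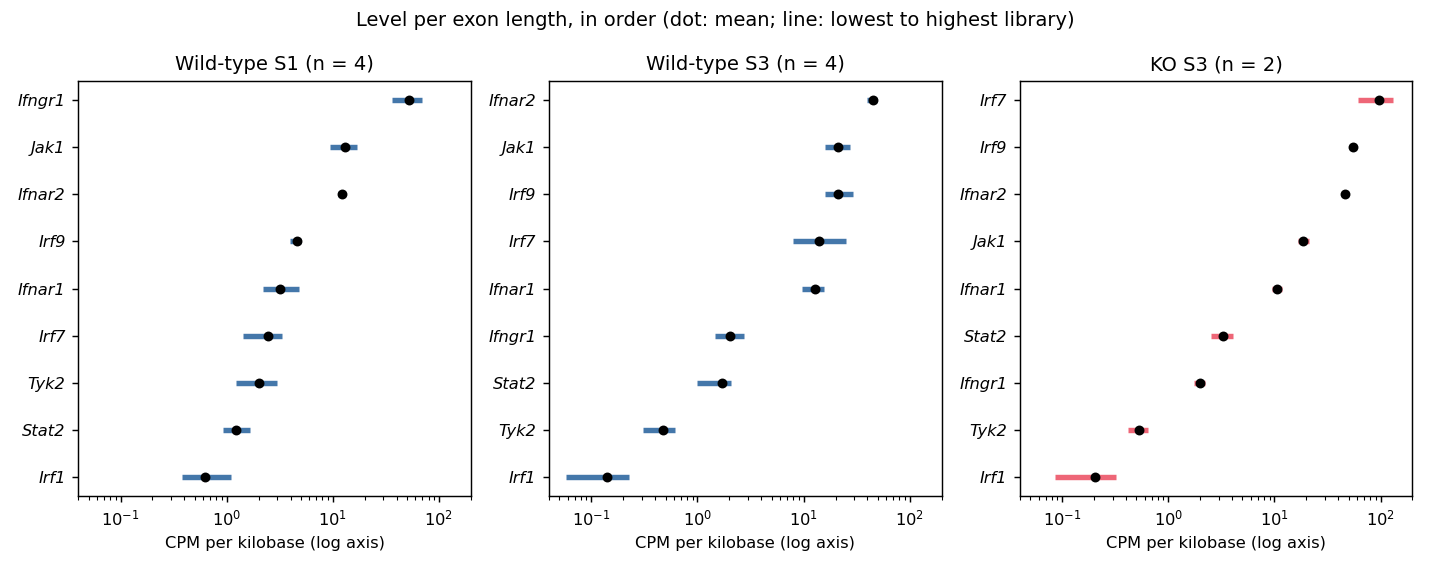
Level of each of the 9 genes in wild-type S1, wild-type S3 and KO S3 cells, in CPM per kb of exonic length on a log axis, with a dot at the mean, a line from the lowest to the highest library and the genes in order of level. Irf7 stands at 13.9 in wild-type and at 96.7 in KO S3 cells, the 4th and 1st place in their order.

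Ifnar1 and Ifnar2, the chains of the type I interferon receptor, lie on chromosome 16, Ifnar1 (ENSMUSG00000022967.14) from 91282126 to 91304329 and Ifnar2 (ENSMUSG00000022971.19) from 91169671 to 91202477, both on the plus strand. In wild-type S1 cells Ifnar1 had 17.7, 13.1, 16.6 and 28.3 CPM in embryos 0, 1, 5 and 8, and in S3 cells of the same embryos 86.8, 58.0, 63.3 and 93.3 CPM. In KO embryos 2 and 9 it had 15.7 and 19 CPM at S1 and 56.9 and 70.2 CPM at S3. The stages did not overlap, whereas the KO libraries lay within or just outside the wild-type range at each stage. Between S1 and S3 the log2 level of Ifnar1 rose by 2.01 in wild-type (SE 0.25, adjusted p = 4.8e-05, edgeR), by 1.92 in Het and by 1.86 in KO.

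Ifnar2 varied little between embryos. Its level was 37.6, 42.7, 40.8 and 41.6 CPM in wild-type S1 cells and 146, 132, 156 and 165 CPM in wild-type S3 cells, in the same order of embryos. KO cells had 46.6 and 40.7 CPM at S1 and 156 and 153 CPM at S3, and the difference from wild-type was 0.11 (SE 0.16) at S1 and 0.06 (SE 0.14) at S3 on the log2 scale. The rise with stage was 1.89 in wild-type (SE 0.13, adjusted p = 1.3e-06, edgeR), 1.77 in Het and 1.81 in KO. Of its exonic bases 9.46% are shared with the annotated gene Gm21970, where reads of either were not counted.

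Ifngr1, the chain that binds interferon gamma (ENSMUSG00000020009.14, chr10:19467697-19485977, plus strand), moved the other way. Wild-type S1 cells held 126, 197, 170 and 104.03 CPM and wild-type S3 cells 6.05, 7.75, 5.24 and 4.13 CPM, so that every S3 library lay far below every S1 library. The fall was 4.68 on the log2 scale in wild-type (log2 fold change -4.68, SE 0.29, adjusted p = 7.4e-07, edgeR), and the log2 fold change was -5.05 in both Het and KO. At S1, wild-type embryos 0 and 8 had the least Ifngr1 and also the lowest neutrophil and lymphoid marker sums. The 2 Het libraries, with 215 and 198 CPM, lay above all wild-type libraries, and the KO libraries, with 193 and 176 CPM, did not. The Het difference of 0.46 on the log2 scale was not called, and was 0.13 without wild-type embryos 0 and 8. The 11 neutrophil markers fell with stage too, from sums of 120 to 1530 CPM over all S1 libraries to 1.11 to 14.2 CPM at S3, with Ly6g at 0 in every library. These sums rest on a few granule genes. In Het S1 cells Mpo, Elane and Prtn3 averaged 1073, 195 and 111 CPM, but Ltf, Mmp8 and Ngp 0.028, 0.045 and 0.49 CPM. The 7 lymphoid markers fell from 4.03 to 48.7 CPM to at most 0.60 CPM, and the part of these cells in the change of Ifngr1 was not tested.

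Jak1 (ENSMUSG00000028530.15, chr4:101009564-101122479, minus strand) and Tyk2 (ENSMUSG00000032175.12, chr9:21015364-21042539, minus strand), the kinases held by the receptor chains, also parted with stage. Jak1 had 68.3, 109, 79.2 and 121 CPM in wild-type S1 cells and 176, 114, 130 and 196 CPM in wild-type S3 cells, so the stages overlapped in wild-type. Its rise of 0.72 on the log2 scale (SE 0.23, adjusted p = 0.0178, edgeR) depended on the embryos. The difference was 0.52 without embryo 0 (adjusted p = 0.122, edgeR), 0.72 without embryo 5 (adjusted p = 0.0621, edgeR) and 0.36 without embryos 0 and 8 (adjusted p = 0.15, edgeR), and none of the 3 was called. Jak1 rose by 0.73 in Het (adjusted p = 4.9e-06, edgeR) and by 0.81 in KO (adjusted p = 0.0117, edgeR), where the stages did not overlap.

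Tyk2 had 13.4, 8.44, 13.1 and 20.3 CPM in wild-type S1 cells and 3.18, 4.18, 3.44 and 2.10 CPM in wild-type S3 cells. All S3 libraries lay below all S1 libraries, with a log2 fold change of -2.07 in wild-type (SE 0.29, adjusted p = 0.000108, edgeR), -2.33 in Het and -1.83 in KO. Of the exonic bases of Tyk2, 8.07% lie opposite an annotated gene on the other strand, and the counts did not use the strand. Neither kinase differed beyond the spread between embryos in KO cells, with log2 differences of -0.29 (Jak1, SE 0.25) and -0.10 (Tyk2, SE 0.33) at S1 and of -0.17 (SE 0.23) and 0.18 (SE 0.33) at S3.

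**Figure D2:**
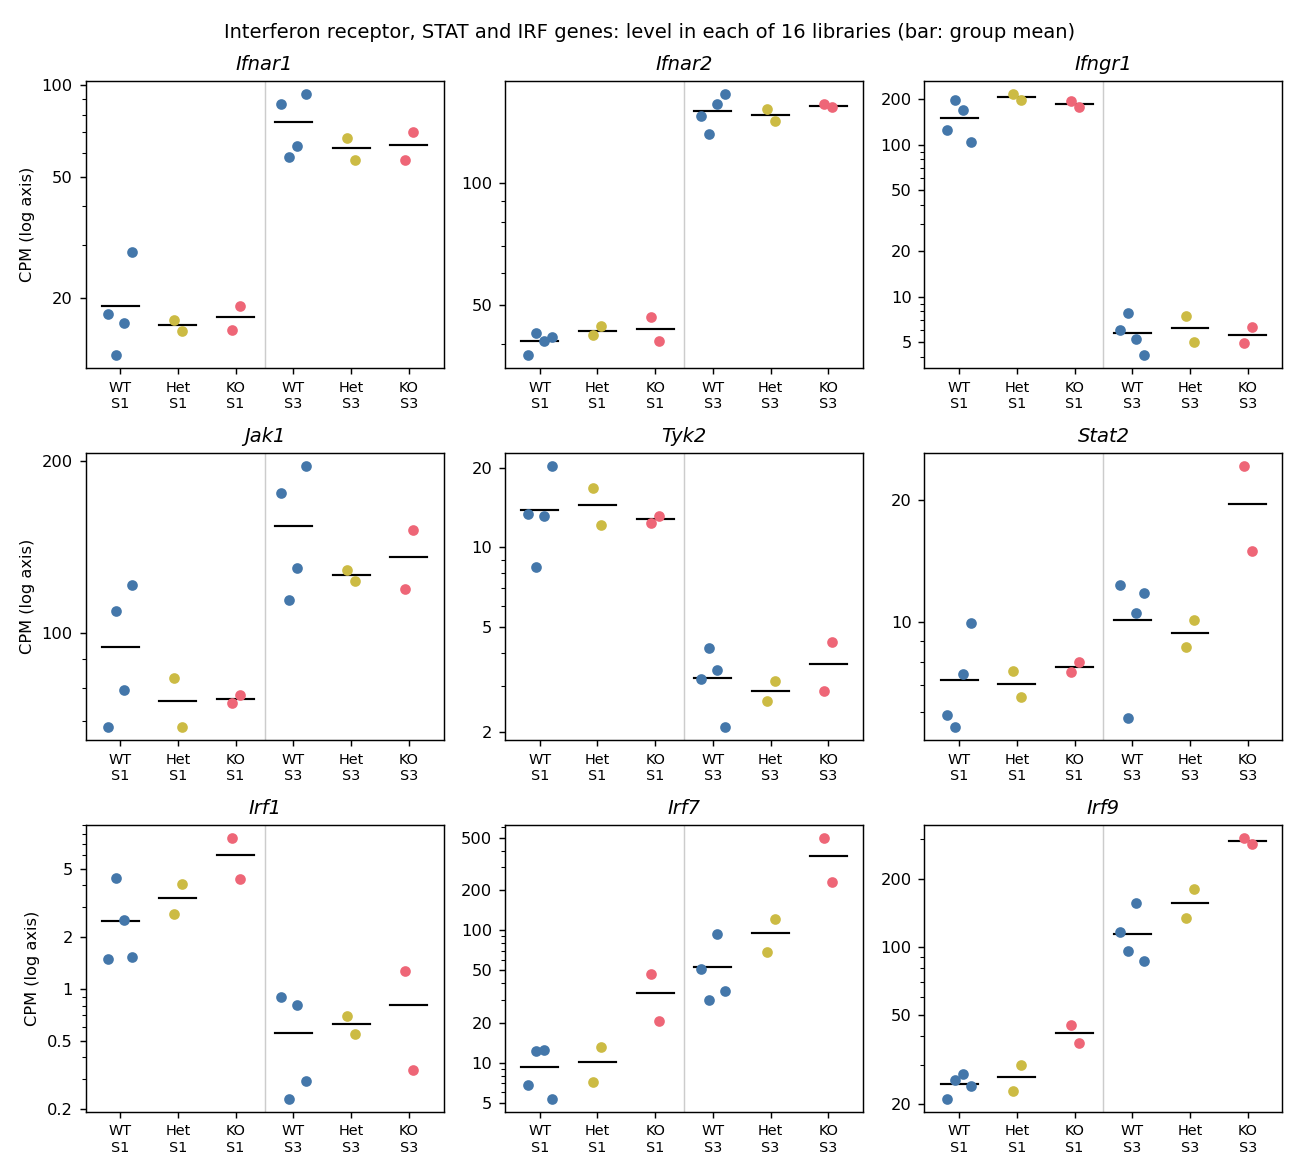
CPM of the 9 genes in each of the 16 libraries, on log axes, by genotype and stage, with 1 point per embryo and a line at the group mean. The S3 points of Irf7 and Irf9 in the KO embryos lie above all wild-type points, and the stages do not overlap in any genotype for Ifnar1, Ifnar2, Ifngr1 and Tyk2, whereas those of Jak1 overlap in wild-type.

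Stat2, the STAT of the ISGF3 complex (ENSMUSG00000040033.17, chr10:128106428-128128718, plus strand), was low throughout. Wild-type embryos 0, 1, 5 and 8 had 5.91, 5.53, 7.44 and 9.95 CPM at S1 and 12.4, 5.83, 10.5 and 11.8 CPM at S3. KO embryos 2 and 9 had 7.52 and 7.98 CPM at S1, within the wild-type range, and 24.2 and 14.9 CPM at S3, above it. The difference at S3 was 0.97 on the log2 scale (SE 0.31) and was not called after adjustment (adjusted p = 0.334, edgeR). It was 0.57 without KO embryo 2 and 1.28 without KO embryo 9, neither called. Het cells had 7.57 and 6.56 CPM at S1 and 8.68 and 10.1 CPM at S3, with no library above wild-type. With stage, the log2 difference was 0.50 in wild-type (adjusted p = 0.123, edgeR) and 0.41 in Het (adjusted p = 0.0635, edgeR), neither called, while in KO Stat2 rose by 1.31 (SE 0.29, adjusted p = 0.012, edgeR).

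Irf9, the DNA-binding partner in ISGF3 (ENSMUSG00000002325.16, chr14:55841028-55847487, plus strand), was higher without Nprl3. Its S3 level was 116, 95.3, 157 and 86.0 CPM in wild-type embryos 0, 1, 5 and 8 and 304 and 285 CPM in KO embryos 2 and 9, and the groups did not overlap. The log2 fold change was 1.39 (SE 0.22, adjusted p = 0.0392, edgeR). The call was lost in 5 of the 6 fits without 1 embryo (adjusted p up to 0.158, edgeR) and with upper-quartile scaling (adjusted p = 0.0549, edgeR). At S1 the wild-type libraries had 21.2, 25.5, 27.2 and 24.2 CPM and the KO libraries 45.1 and 37.5 CPM, again without overlap, but the difference of 0.76 (SE 0.19) was not called (adjusted p = 0.9998, edgeR). Het embryo 3 lay within the wild-type range at both stages with 23.0 and 134 CPM, and Het embryo 4 lay above it with 29.8 and 180 CPM. With stage, Irf9 rose by 2.21 in wild-type on the log2 scale (SE 0.20, adjusted p = 7.1e-06, edgeR), by 2.57 in Het and by 2.82 in KO.

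Irf7, the interferon-induced factor that drives type I interferon genes (ENSMUSG00000025498.16, chr7:140842619-140846394, minus strand), differed most. Wild-type embryos 0, 1, 5 and 8 had 50.6, 29.9, 94.2 and 35.0 CPM at S3, and KO embryos 2 and 9 had 500.2 and 230 CPM. Both KO libraries lay above all wild-type libraries, with embryo 2 above embryo 9, and the log2 fold change was 2.81 (SE 0.45, adjusted p = 0.0419, edgeR). Without KO embryo 2 it was 2.13 (adjusted p = 0.178, edgeR), and the call was lost in 4 of the 6 fits without 1 embryo and with upper-quartile scaling. At S1 the levels were 6.75, 12.3, 12.6 and 5.37 CPM in wild-type and 46.5 and 20.6 CPM in KO cells, which did not overlap, and the difference of 1.86 (SE 0.44) was not called (adjusted p = 0.9998, edgeR). It was 1.16 without KO embryo 2 and ran up to 2.32 when another embryo was left out. Het embryos 3 and 4 had 7.12 and 13.2 CPM at S1 and 69.0 and 122 CPM at S3, so that only embryo 4 lay above wild-type, as for Irf9. Irf7 rose with stage by 2.5 in wild-type (SE 0.42, adjusted p = 0.000425, edgeR), by 3.24 in Het and by 3.43 in KO. Among wild-type embryos, embryo 5 had the highest S3 level of both Irf7 and Irf9.

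Irf1 (ENSMUSG00000018899.18, chr11:53660841-53669200, plus strand), which is induced by both kinds of interferon, fell with stage. It had 1.5, 4.41, 2.51 and 1.53 CPM in wild-type S1 cells and 0.90, 0.23, 0.80 and 0.29 CPM in wild-type S3 cells. The groups did not overlap, with log2 fold changes of -2.12 in wild-type (SE 0.54, adjusted p = 0.00534, edgeR), -2.44 in Het and -2.92 in KO. KO embryos had 7.59 and 4.37 CPM at S1, of which embryo 9 lay just below wild-type embryo 1, and 1.27 and 0.34 CPM at S3. Its log2 difference from wild-type was 1.26 at S1 (SE 0.48, adjusted p = 0.9998, edgeR) and 0.49 at S3 (SE 0.71, adjusted p = 0.938, edgeR), and the S3 libraries rest on 4 to 21 counts each. Of its exonic bases 20% lie opposite an annotated gene on the other strand.

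Over the 9 genes, KO against wild-type at S3 gave 2 called higher (Irf7 and Irf9) and 0 called lower, where 0.457% of all 11804 genes tested were called higher and 0.102% lower. In 3 of the 9 (Irf7, Irf9 and Stat2) both KO libraries lay above all wild-type libraries, as in 9.18% of all genes, and in 0 did both lie below, as in 9.36%. The median log2 fold change of the 4 transcription factor genes was 1.18, that of the 3 receptor genes -0.04 and that of the 2 kinase genes 0.002, against 0.01 over all genes tested. Which of the 2 were called depended on the embryos. Neither gene was called once wild-type embryo 0, 1 or 8 or KO embryo 2 was left out, Irf7 alone was called without KO embryo 9, and both were called without wild-type embryo 5. The calls over all genes, 54 higher and 12 lower, fell in these fits too. They were 11, 22 and 9 higher without wild-type embryos 0, 1 and 8 and 39 to 41 in the other 3 fits, with 0 to 5 lower, and were 144 and 115 with DESeq2 and 285 and 262 with sex as a covariate in edgeR. Over these fits the log2 fold change ran from 2.13 to 3.27 for Irf7 and from 1.25 to 1.56 for Irf9.

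**Figure D3:**
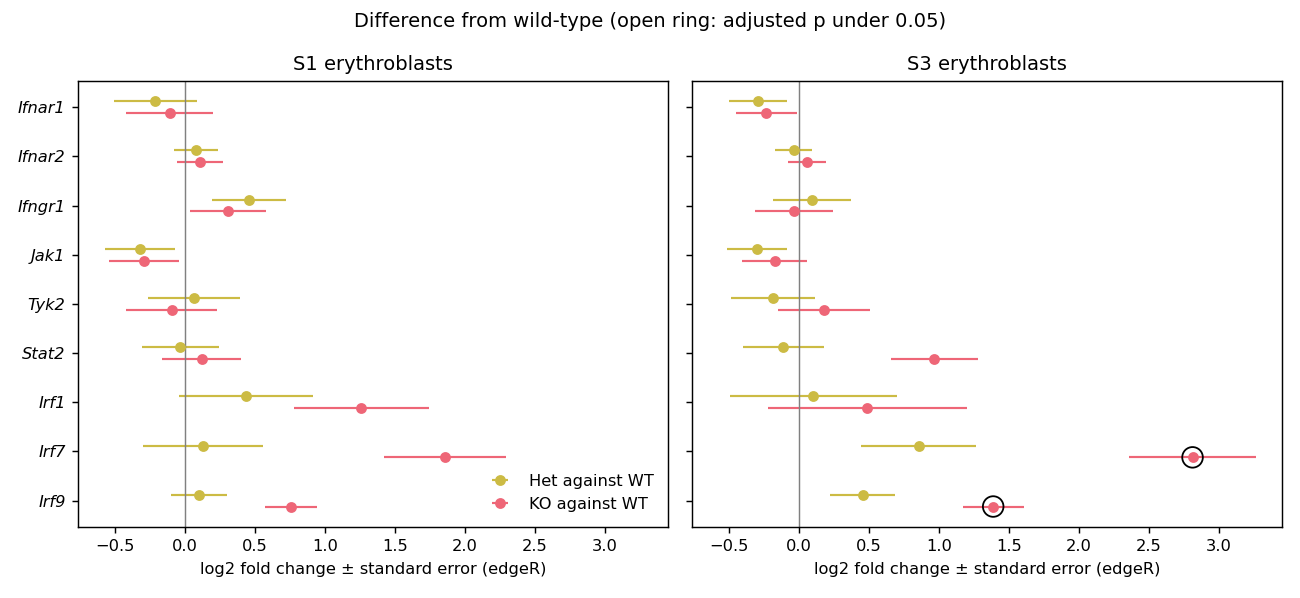
Log2 fold change of KO and Het against wild-type for the 9 genes at S1 and S3, with bars of 1 SE from edgeR and a ring around each difference with an adjusted p under 0.05. Irf7 and Irf9, the 2 ringed genes, lie farthest to the right in KO at S3, at 2.81 and 1.39, while the receptor and kinase genes lie near 0.

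At S1, 0 of the 9 genes were called by edgeR in KO against wild-type in either direction, where 0% of 14039 genes were called higher and 0.00712% lower. At an unadjusted p under 0.05 the count was 3 of the 9 (Irf7, Irf9 and Irf1) and 355 of all genes, and DESeq2 called 1 (Irf7, adjusted p = 0.0318) among 37 genes higher and 8 lower. In 2 of the 9 (Irf7 and Irf9) both KO libraries lay above all wild-type libraries, as in 6.57% of all genes, and in 0 below, as in 3.26%. The median log2 difference was 0.12 over the 9 genes and 1.01 over the 4 transcription factor genes, against -0.01 over all. Without wild-type embryos 0 and 8 the differences of Irf7, Irf9 and Irf1 were 1.40, 0.62 and 0.75.

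Het cells gave 0 called genes of the 9 at both stages by edgeR, where 0% of all genes were called in either direction at S1 and likewise 0% at S3. With sex as a covariate in edgeR, 183 of all genes were called higher and 214 lower at S1, and 1038 higher and 1086 lower at S3, among them Ifnar1 (-0.55, adjusted p = 0.00921, edgeR) and Jak1 (-0.58, adjusted p = 0.00588, edgeR). Without covariates, DESeq2 also called 0 of the 9 at both stages, and 0 of the 9 had an unadjusted p under 0.05, against 589 of all genes at S1 and 373 at S3. At S1, 1 of the 9 genes (Ifngr1) lay above wild-type in both Het libraries, as in 10.6% of all genes, and 0 below, as in 8.22%. At S3, 0 of the 9 lay wholly above wild-type, as in 6.96% of all genes, and 0 below, as in 6.26%. The log2 difference at S3 was 0.86 for Irf7 (SE 0.41, adjusted p = 0.901, edgeR) and 0.45 for Irf9 (SE 0.23, adjusted p = 0.901, edgeR). At S1 it was 0.13 for Irf7 (SE 0.43) and 0.10 for Irf9 (SE 0.20), but -0.32 and -0.037 without wild-type embryos 0 and 8 and 0.74 and 0.22 with sex in edgeR, none called.

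From S1 to S3, 5 of the 9 genes were called higher and 3 lower in wild-type, where 30.6% of all genes tested were called higher and 35% lower. In Het the counts were likewise 5 and 3, against 36.3% and 39.6% of all genes, and in KO 6 and 3, against 24.7% and 28.4%. The additional gene in KO was Stat2. Fits with the embryo as a block called the same number of the 9 genes in each genotype, and upper-quartile scaling moved the median log2 fold change of all genes by -0.16 in wild-type, -0.14 in Het and -0.19 in KO, under which Jak1 in wild-type was no longer called (0.54, adjusted p = 0.0533, edgeR). The test of whether the KO difference itself changed with stage called 0 of the 9 genes by edgeR, against 0.00742% of all genes higher and 0% lower. Its estimates were 0.94 for Irf7 (SE 0.73), 0.62 for Irf9 (SE 0.31) and 0.85 for Stat2 (SE 0.46) on the log2 scale, and 0 of the 9 had an unadjusted p under 0.05, against 420 of all genes, or were called by DESeq2. A larger KO difference at S3 than at S1 was thus not shown for any of them.

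**Figure D4:**
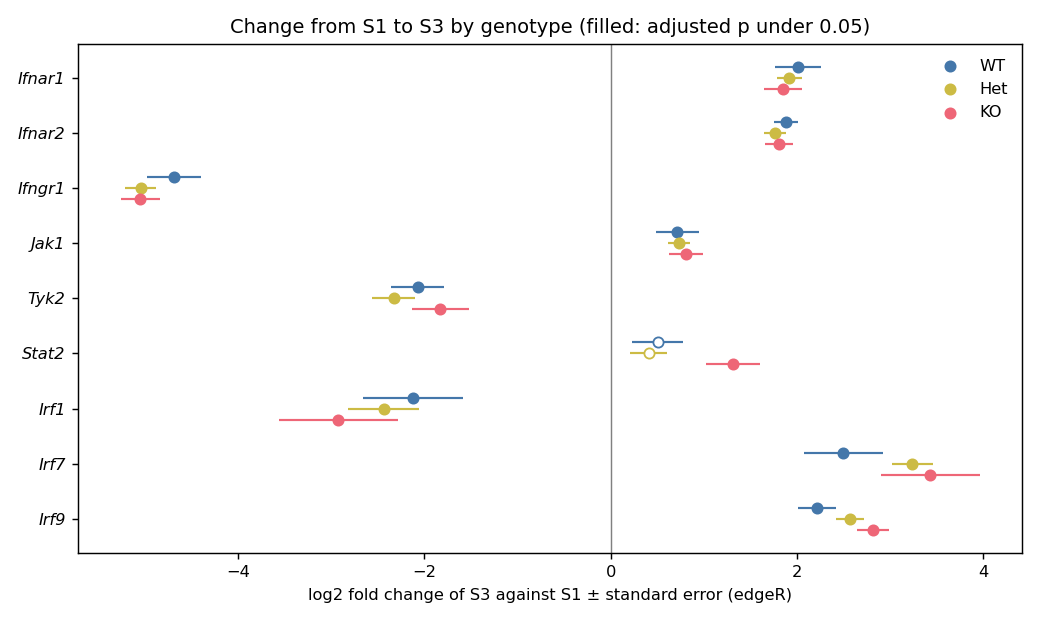
Log2 fold change of S3 against S1 for the 9 genes in wild-type, Het and KO, with bars of 1 SE from edgeR and filled points where the adjusted p was under 0.05. Ifnar1, Ifnar2, Irf7 and Irf9 lie to the right and Ifngr1, Tyk2 and Irf1 to the left of 0 in all 3 genotypes.

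The remaining genes of the pathway were given as lists. No interferon gene was measurably expressed. Of 21 type I, II and III interferon ligand genes, 19 had 0 counts in every library, Ifna13 had 1 count in each of the Het S1 libraries, and Ifnk had 0 to 5 counts at S1 and 0 at S3, so none was tested. Of 3 further receptor genes, 2 were tested in KO against wild-type at S3 and 0 were called. Ifngr2, the signalling chain of the interferon gamma receptor, had a log2 difference of -0.57 (SE 0.18, adjusted p = 0.326, edgeR), and Il10rb, a chain shared by the receptors of interferon lambda and interleukin 10, of 0.32 (SE 0.14, adjusted p = 0.591, edgeR). Il10rb rose from S1 to S3 in wild-type by 1.76 (SE 0.14, adjusted p = 2.5e-06, edgeR), and Ifngr2 differed by 0.18 (SE 0.19).

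Further JAK and STAT genes are given singly. In KO against wild-type at S3, Stat5b, which acts downstream of the erythropoietin receptor together with Stat5a, had a difference of 0.26 (SE 0.16), and Jak3, the kinase of the common gamma chain, of -0.49 (SE 0.36). With stage in wild-type, Stat5a fell from 34.9 to 75.3 CPM at S1 to 0.80 to 1.93 CPM at S3 (log2 fold change -5.21, adjusted p = 5.9e-07, edgeR), and Stat5b fell too (-1.72). Jak2, the kinase of the erythropoietin receptor, rose by 1.77 (SE 0.33).

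Of 6 further IRF genes, 4 were tested in KO against wild-type at S3, with 0 called and a median of -0.40. Irf5 and Irf8, factors of myeloid cells, had log2 differences of -1.18 (SE 0.44, adjusted p = 0.452, edgeR) and -0.82 (SE 0.42, adjusted p = 0.671, edgeR), and Irf2, a repressor of interferon responses, of 0.26 (SE 0.19). Of Irf5 the KO embryos had 0.76 and 0.51 CPM and of Irf8 1.02 and 0.79 CPM, lower than in any wild-type embryo. The 15 macrophage markers also summed to less in KO S3 cells (25.8 and 42.6 CPM) than in wild-type S3 cells (51.4 to 108 CPM), and their part in these differences was not tested. With stage in wild-type, where 35% of all genes were called lower, 0 rose and 3 of 4 fell. These were Irf8 (-2.02, adjusted p = 0.00356, edgeR), Irf5 (-0.97, adjusted p = 0.0444, edgeR) and Irf3 (-0.38, adjusted p = 0.0498, edgeR). The stages overlapped for Irf5 and Irf3, whose adjusted p lay just under the threshold.

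Of 13 negative regulators of the pathway, 12 were tested in KO against wild-type at S3, with a median of 0.06. Where 0.457% of all genes tested were called higher and 0.102% lower, 1 of the 12 was called higher and 0 lower. That gene, Usp18, encodes a protease that removes ISG15 and blocks signalling at IFNAR2. Usp18 had 13.6, 10.9, 32.8 and 7.38 CPM in wild-type S3 cells and 280 and 92.8 CPM in KO S3 cells, without overlap, with a log2 fold change of 3.53 (SE 0.58, adjusted p = 0.0438, edgeR). Pias3, an inhibitor of STAT3, had 0.74 (SE 0.37), and Ptpn6, a phosphatase of haematopoietic receptors, had -0.65 (SE 0.37), neither called. With stage in wild-type 6 of 12 rose and 4 fell, where 30.6% of all genes were called higher and 35% lower, among them Cish, a target and inhibitor of STAT5 (4.71), Pias1 (1.61) and Ptpn6 (-3.62).

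Some target genes of the pathway were called higher in KO S3 cells, where 0.457% of all genes tested were. Of 22 genes induced by type I interferon, 16 were tested, and 6 were called higher and 0 lower. High counts in KO libraries help a gene to pass the filter on the mean count, so the counts of these lists describe the genes that passed and no median is given. Isg15, a ubiquitin-like modifier, rose by 4.69 (adjusted p = 0.0133, edgeR), Rsad2, which encodes viperin, by 3.86 (adjusted p = 0.0153, edgeR) and Ifih1, which encodes the RNA sensor MDA5, by 1.6 (adjusted p = 0.0153, edgeR). Of 13 genes induced mainly by interferon gamma, 5 were tested, and 2 were called higher and 0 lower. These were the interferon-inducible GTPase genes Igtp (3.26, adjusted p = 0.0242, edgeR) and Irgm1 (2.74, adjusted p = 0.0386, edgeR), which also respond to type I interferon, while Gbp3 had 0.80 (SE 0.57). At S1 0 genes of these 2 lists were called by edgeR. Of the genes that passed the filter there, 14 of 17 type I targets and 4 of 8 gamma targets had an unadjusted p under 0.05. The same held for 355 of all 14039 genes.

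Genes whose levels followed those of the 9 most closely within the stages were sought over the 16 libraries, after the mean of each stage was taken off log2 CPM, among 13350 genes. The 16 libraries come from 8 embryos, so the points are not independent, and Pearson's r is given as a description. The difference between genotypes was kept, so r also reflects it. Irf7, Irf9, Usp18, Igtp and Irgm1 were all called higher in KO S3 cells, and their likeness is no separate evidence. Ranked by Spearman's rho, the 3 closest genes were others altogether for Ifnar1, Ifnar2, Jak1, Tyk2 and Stat2, while Irf7 and Irf1 shared 2 of 3 and Irf9 and Ifngr1 shared 1 of 3. Irf7 was most like Usp18 (r = 0.985), Igtp (0.980) and Irgm1 (0.974), and Irf9 was most like Igtp (0.984), Irgm2 (0.976) and Parp9 (0.971). The r of Irf7 with Irf9 was 0.963, that with Irf1 0.688 and that with Stat2 0.590. Stat2 was most like Nub1 (0.941), Parp10 (0.875) and Ano8 (0.865), and Irf1 most like Tor3a (0.918), Trim30d (0.904) and Gsdmd (0.876). Apart from Usp18, Igtp and Irgm1, none of the genes named here as closest was in the lists used. The closest were Nbr1 (0.979), Mtmr3 (0.978) and Strn3 (0.976) for Ifnar1, and Hspa5 (0.755), Gm6263 (0.754) and Mkks (0.732) for Ifnar2. For Ifngr1 they were Lxn (0.902), Cebpd (0.872) and Sccpdh (0.859), for Jak1 they included Lpin2 (0.947) and Atp11b (0.945), and for Tyk2 they were Mettl13 (0.899), Zcchc4 (0.882) and Nars2 (0.876). With the stage means kept, r was -0.65 for Ifnar2 with Mkks, -0.44 for Jak1 with Atp11b, -0.27 for Tyk2 with Zcchc4, 0.38 for Tyk2 with Nars2 and -0.13 for Stat2 with Ano8, so these genes did not follow the members across the stages.

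Other cells that a sort could carry were checked by their markers. The 15 macrophage markers summed to 89.9, 85.9, 108 and 51.4 CPM in wild-type S3 cells of embryos 0, 1, 5 and 8 and to 42.6 and 25.8 CPM in KO S3 cells, lower in both KO libraries than in any wild-type library. Within a genotype the order varied. Wild-type embryo 5 had the highest sum and the highest Irf7 of its group, and KO embryo 2 had more of both than KO embryo 9. Het embryo 4 had a lower sum than Het embryo 3 (55.0 against 75.2 CPM) but more Irf7 (122 against 69.0 CPM). All 15 had a fold change below 0 and 2 were called lower, Marco (-2.58) and Lyz2 (-1.68), where 0.102% of all genes tested were. Siglech, a defining marker of plasmacytoid dendritic cells, was at 0 in every S3 library, and the 5 markers of that cell type summed to 0.06 to 0.37 CPM at S3. Neutrophil markers summed to 1.11 to 4.85 CPM in wild-type and to 1.59 and 14.2 CPM in KO S3 cells, the higher KO value being that of embryo 9. At S1, macrophage markers summed to 32.1 to 55.7 CPM in wild-type and to 69.6 and 70.9 CPM in KO cells. Most single markers went against that sum, as 10 of the 15 had a fold change below 0 and 5 above, with 0 called. The neutrophil sums at S1 were 1491 and 1530 CPM in KO against 120 to 1224 CPM in wild-type cells. The 10 hepatoblast markers summed to 211 to 947 CPM in wild-type and to 97.5 and 259.8 CPM in KO S3 cells, which overlapped. All 10 had a fold change below 0, with 0 called and 5 at an unadjusted p under 0.05, against 1006 of all 11804 genes. At S1 they summed to 348 and 349.6 CPM in wild-type embryos 0 and 8 and to at most 175 CPM elsewhere. The part of these cells in the differences at either stage was not tested.

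**Figure D5:**
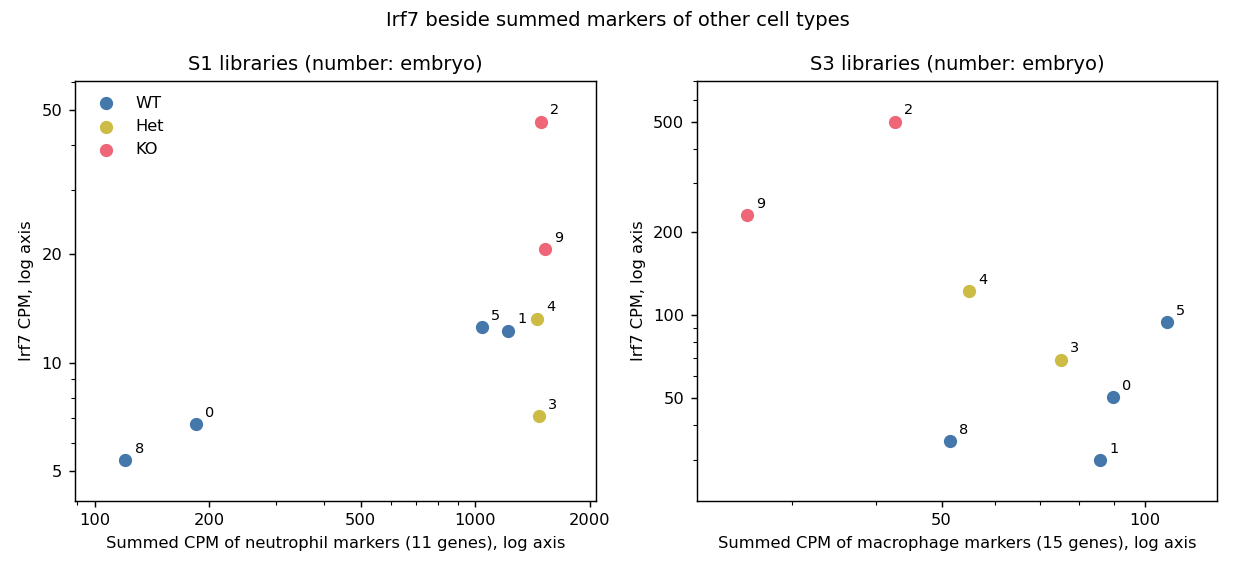
Irf7 against the summed 11 neutrophil markers in the S1 libraries and against the summed 15 macrophage markers in the S3 libraries, in CPM on log axes, with 1 point per library and its embryo number. At S1 wild-type embryos 0 and 8 are lowest on both axes, and at S3 the KO libraries have 500.2 and 230 CPM of Irf7 with macrophage sums of 42.6 and 25.8 CPM, below all wild-type sums.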

How the data were processed

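RNA was amplified (SMARTer) from sorted cells before poly(A) library preparation. The authors aligned reads to mm39 with STAR 2.7.9 and deposited raw counts per gene from featureCounts 1.6.4. Per the file headers, read pairs were counted without strand, leaving out reads on several genes or places. Symbols came from GENCODE mouse release 39, which matched 54749 of 55416 genes, and 4 library columns matching no sample were not used.

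Genes with a mean normalized count above 10 in the fitted libraries were tested with edgeR 4.0.16 (quasi-likelihood, TMM) in R 4.3.3, without covariates, with Benjamini-Hochberg adjustment over all genes tested and a threshold of 0.05. CPM used TMM factors over all 16 libraries. Scripts were tested on simulated data. The study's methods name DESeq2, tried here (1.42.0) as an alternative together with other scalings, no filter, sex as a covariate and omitted embryos. The members and lists were chosen with earlier results of these data known. Named genes were the 9 members, the 3 genes of smallest p per list at S3 (KO) and with stage (wild-type), expressed ligands and the 3 closest genes by correlation. Some genes picked by it, and the counts of 1 list that holds such a gene, are not reported here.

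Same-numbered S1 and S3 libraries come from 1 animal. Their deviations from the group means correlated at 0.050, 0.290, 0.407 and 0.409 in wild-type embryos 0, 1, 5 and 8, at 0.534 in KO and at 0.069 in Het, over 13402 genes. Total counts per library were 20666044 or more, and for 4 against 2 the smallest exact two-sided permutation p is 0.0667.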

Additional observations from a re-analysis of the deposited data

How the results depend on the processing

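The number of the 9 genes called higher in KO cells at S1, 0 in the edgeR fit, was 1 with DESeq2 and 1 with sex as a covariate in edgeR (Irf7 in both), and 3 with DESeq2 and sex (Irf1, Irf7 and Irf9). The same fits called 37, 18 and 119 of all genes higher and 8, 3 and 52 lower, against 0 and 1 in the edgeR fit. At S3 it was 2, and both genes stayed called with DESeq2 (adjusted p = 0.00134 for Irf7 and 6.4e-06 for Irf9, DESeq2). Both also stayed called with sex in edgeR (adjusted p = 0.000824 and 0.000962, edgeR). The number was 0 with upper-quartile scaling (adjusted p = 0.0549 for both genes, edgeR) and 0 to 2 when single embryos were left out. Over all genes, 54 higher and 12 lower, the counts were 35 and 7 with upper-quartile scaling, 9 to 41 and 0 to 5 without single embryos, 219 and 137 without the filter, 144 and 115 with DESeq2, 285 and 262 with sex in edgeR and 308 and 422 with sex in DESeq2. Stat2 was also called at S3 without the filter on low counts (adjusted p = 0.0259, edgeR) and with DESeq2 and sex (adjusted p = 0.00993). In Het cells, 1 gene was called higher at S1 with DESeq2 and sex (Ifngr1), and 2 were called lower at S3 with sex in edgeR and 2 with sex in DESeq2 (Ifnar1 and Jak1). The same fits called 332 of all genes higher and 483 lower at S1 with DESeq2, and at S3 1038 higher and 1086 lower with edgeR and 1171 and 977 with DESeq2. Both Het embryos are male, and why sex as a covariate added calls was not tested.

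Directions turned only for differences that were called in no fit of that comparison. When single embryos were left out, the S1 difference in KO ran from -0.27 to 0.13 for Ifnar1 and from -0.27 to 0.13 for Tyk2, and at S3 it ran from -0.011 to 0.085 for Ifnar2, from -0.21 to 0.12 for Ifngr1, from -0.16 to 0.45 for Tyk2 and from -0.74 to 1.16 for Irf1. In Het it ran at S1 from -0.14 to 0.12 for Stat2, from -0.40 to 0.50 for Irf7 and from -0.11 to 0.27 for Irf9, and at S3 from -0.30 to 0.0020 for Stat2. Leaving out wild-type embryos 0 and 8 together, a choice made after seeing the data, gave at S1 0.21 for Ifnar1, -0.016 for Ifngr1 and 0.23 for Tyk2 in KO, and 0.088 for Stat2, -0.32 for Irf7 and -0.037 for Irf9 in Het. In Het it also turned Ifnar1 from -0.21 to 0.11 and Irf1 from 0.44 to -0.073. Further turns in Het, under omitted embryos or with sex as a covariate, were those of Tyk2 at both stages, Ifnar1 at S1, and Ifnar2, Ifngr1 (-0.21 to 0.34) and Irf1 (-0.16 to 0.33) at S3. Estimates of the interaction turned for Ifnar2, Jak1 and Tyk2. As Spearman's rho, the likeness of Ifnar2 was 0.51 with Hspa5 and 0.64 with Gm6263, and that of Tyk2 with Mettl13 was 0.64.

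The paired fits, with the embryo as a replicate block, called 5 higher and 3 lower of the 9 genes in wild-type and changed no call of a member in the stage or interaction comparisons (Irf7 2.47 in wild-type). In Het and KO, leaving out an embryo leaves 1 library per stage, which gives values without a test.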
